A study of Mus musculus with 5 samples.

Results

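The clustered protocadherins are cell-surface adhesion proteins of the cadherin superfamily whose genes stand in 3 tandem arrays, alpha, beta and gamma, on mouse chromosome 18. The members were taken from the GENCODE M21 annotation of the GRCm38 genome as the protein-coding genes on that chromosome whose symbols begin with Pcdha, Pcdhb or Pcdhg. This rule gave 57 genes of the 21938 protein-coding genes on the nuclear chromosomes, of which 14 were alpha, 22 beta and 21 gamma genes. No measured value entered this rule, although the gene family was chosen with earlier results of these data known. The symbol Pcdha11 is carried by 2 of the members in this annotation, and Pcdhgb8, annotated as a polymorphic pseudogene, was not a member.

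In neurons, each of these genes is driven by its own promoter, and a cell switches on only a few of them, so that the combination of isoforms on its surface acts as an identity tag. A variable exon encodes the extracellular cadherin repeats and the membrane span. In the alpha and gamma arrays it is spliced to constant exons that encode a shared cytoplasmic end, whereas beta genes have no constant exons. The C-type genes at the end of the alpha and gamma arrays are expressed more broadly in neurons than the others. H3K27me3, the repressive histone mark placed by Ezh2 in Polycomb complexes, typically covers CpG-rich promoters of silent developmental genes such as the Hox genes.

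The mark was profiled by ChIP-seq in the mesenchyme of molars from wildtype C57BL/6 mice at postnatal day 3, after the epithelium had been taken off, in a study that asked which genes Ezh2 holds down in the developing tooth root. There were 5 libraries, of which 2 were H3K27me3 precipitates, 2 were inputs (chromatin without precipitation) and 1 was an IgG control, all of the same strain, genotype and age. Whether the replicates came from separate litters or from pooled animals was not stated in the sources used here, so the spread between them may be technical. The deposited peak lists hold no expression values, and the label of the tissue could not be checked with markers of expressed genes.

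Each H3K27me3 library was called against its own input, and replicate 1 was also called against IgG, which gave 22757, 24881 and 33370 nuclear peaks for replicate 1 against input, replicate 1 against IgG and replicate 2 against input. The lists of replicate 1 share the same H3K27me3 library and are therefore not independent. After duplicate removal the H3K27me3 libraries held 30369351 tags of 49 bases and 49947919 tags of 74 bases. Pileup, the mean height of tags stacked over a peak, was at its lowest 4 tags in replicate 1 and 6 tags in replicate 2. Most single peaks are therefore low stacks, although a height is not a count and a long peak can hold more tags than its height.

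The alpha cluster ran from Pcdha1 to Pcdhac2 over 257 kb (chr18:36930184-37187661), the beta cluster from Pcdhb1 to Pcdhb22 over 260 kb (chr18:37264938-37524479) and the gamma cluster from Pcdhga1 to Pcdhgc5 over 180 kb (chr18:37661793-37841873). All 57 members lie on the plus strand. Alpha and gamma each contained 3 constant exons shared by at least 3 members, and beta contained 0. The variable exon, taken as the longest exon of a gene that is not constant, had a median length of 2494 bp in alpha, 3714 bp in beta and 2608 bp in gamma. Variable exons made up 13.7%, 35.5% and 31.2% of the respective spans.

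The number of peaks differed between the replicates in alpha and beta and was the same in gamma. Replicate 1 had 3 peaks against input, 0 in alpha, 1 in beta and 2 in gamma. Replicate 2 had 13 peaks, 6 in alpha, 5 in beta and 2 in gamma. Called against IgG, replicate 1 had 5 peaks, 1 in alpha, 3 in beta and 1 in gamma. Autosomal windows as long as alpha held a median of 1 peak in replicate 1 (quartiles 0 and 3) and of 3 in replicate 2 (quartiles 2 and 5), so alpha lay at the lower quartile in replicate 1 and above the upper one in replicate 2. Windows as long as beta had the same medians and quartiles, and beta lay at the median in replicate 1 and at the upper quartile in replicate 2. Windows as long as gamma held a median of 1 (0 and 2) and 2 (1 and 3), and gamma lay within these quartiles in both replicates.

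**Figure D1:**
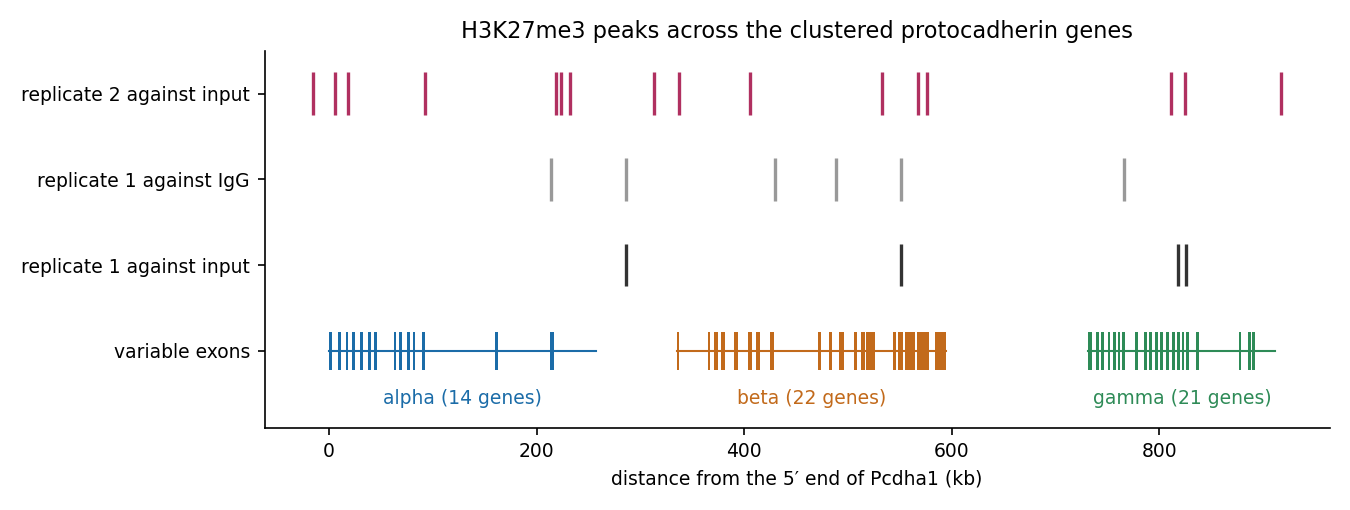
Peaks of the 3 lists (upper rows, a vertical line at each peak's midpoint) and variable exons of the 57 members (lower row) by distance from the 5′ end of Pcdha1 in kb, with horizontal lines for the span of each cluster. The 13 peaks of replicate 2 in the clusters include 6 in alpha, where replicate 1 had 0 against input, and the replicates come closest in gamma, at Pcdhga11.

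In replicate 1 the density was 0 peaks per Mb in alpha (exact 95% Poisson interval 0 to 14.3), 3.85 in beta (0.0975 to 21.5) and 11.1 in gamma (1.35 to 40.1), beside 9.40 over the sequenced autosomes and 8.29 over chromosome 18. In replicate 2 it was 23.3 in alpha (8.55 to 50.7), 19.3 in beta (6.26 to 45.0) and 11.1 in gamma (1.35 to 40.1), beside 13.6 over the autosomes and 13.3 over chromosome 18. The IgG-called list gave 3.88 in alpha (0.0983 to 21.6), 11.6 in beta (2.38 to 33.8) and 5.55 in gamma (0.141 to 30.9), beside 10.3 over the autosomes. Each of these intervals, which cover counting error only, included the autosomal density of its own list. Over the 2 input-called replicates the density was 11.7 ± 16.5 peaks per Mb in alpha, 11.6 ± 10.9 in beta and 11.1 ± 0 in gamma (SD, n = 2), beside 11.5 ± 2.97 over the autosomes.

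**Figure D2:**
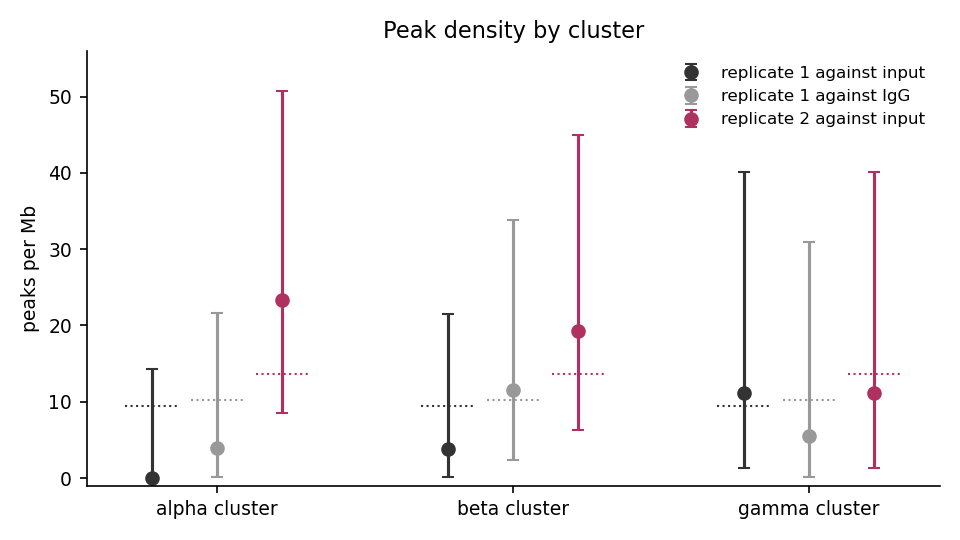
Peaks per Mb in each cluster and list. Points are the densities, bars exact 95% Poisson intervals of the count, and dotted lines the autosomal density of the same list, which lies within the interval in each cluster.

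Joined, the 3 clusters had 4.30 peaks per Mb in replicate 1 (0.887 to 12.6) and 18.6 in replicate 2 (9.93 to 31.9), which is 0.458 and 1.37 times the autosomal density of the same list. The chromosome just before the clusters, over a stretch as long as the whole locus, held 19 and 21 peaks in replicates 1 and 2, and the equally long stretch after them held 18 and 18. The whole locus of 912 kb, gaps included, held 4 and 14. Windows of that length along the autosomes held a median of 6 peaks in replicate 1 (quartiles 3 and 10) and 12 in replicate 2 (9 and 15), so the locus lay within the middle range of windows in both replicates.

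Peaks covered 0.0559% of the bases of the 3 clusters in replicate 1 and 0.344% in replicate 2 (mean 0.200% ± 0.204, SD, n = 2), beside 0.124% and 0.265% of the sequenced autosomes. The replicates fell on either side of their own autosomal value. The Hox clusters, taken as a well-known target of the mark, were covered over 12.1% of their bases in replicate 1 and 9.23% in replicate 2, with 602 and 315 peaks per Mb.

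The cluster peaks were of ordinary or low strength for their lists. Fold enrichment over the control ranged from 2.53 to 2.60 in the 3 peaks of replicate 1, where the median of the list was 2.63, and from 2.36 to 2.67 in the 13 of replicate 2, where it was 2.45. The −log10 p-value lay between 2.41 and 2.52 in replicate 1 (list median 2.52), whereas replicate 2 reached from 2.44 to 2.97 (list median 2.54). All 3 peaks of replicate 1 and 4 of the 13 of replicate 2 stood at the lowest pileup of their list, as did 44.5% and 37.9% of all peaks. No cluster peak in any list reached a fold enrichment of 3 (0 of 3, 0 of 5 and 0 of 13), a value that 8.96%, 10.7% and 1.56% of the peaks reached in the lists of replicate 1 against input, replicate 1 against IgG and replicate 2. None reached a −log10 p-value of 3 either, which 3.27%, 11.3% and 11.0% of the peaks did. At such shares few or none of 3, 5 and 13 peaks would reach either limit, so these counts of 0 say little on strength. In the Hox clusters 7.43% of 296 peaks in replicate 1 and 21.3% of 155 in replicate 2 reached a −log10 p-value of 3.

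The peaks of replicate 1 lay in variable exons, and those of replicate 2 were spread over variable exons and introns. Variable exons held 3 of 3 cluster peaks in replicate 1, 3 of 5 against IgG and 6 of 13 in replicate 2, and they make up 26.3% of the joined spans. In replicate 2, 6 further peaks were in introns of members and 1 lay between genes. No peak of any list touched a constant exon. Alpha and gamma have only 3 of these each, a small part of the spans, so this absence says little. The density outside variable exons was 0 peaks per Mb in replicate 1 (0 to 7.18), under its autosomal density of 9.40, but 13.6 (5.48 to 28.1) in replicate 2, which had 13.6 over the autosomes. The IgG-called list had 3.89 there (0.472 to 14.1). Inside variable exons the density was 16.3 in replicate 1 with either control (3.37 to 47.8) and 32.7 in replicate 2 (12.0 to 71.2). These intervals included the autosomal density of their own list. Base composition moved with this position, since variable exons were 48.7% G and C and the rest of the spans 39.1%. Its part in the result was not tested. Over the autosomes, 6.99% of the peaks of replicate 1 and 7.04% of those of replicate 2 touched a protein-coding exon, and such exons make up 3.86% of the sequenced bases. Shares of peaks and of bases are unlike measures, here and for the 26.3% of the spans. The lists had median peak lengths of 119 and 181 bp in replicates 1 and 2, and an overlap of 1 base sufficed, which raises the shares of peaks.

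At the promoters, 2 of 57 members had a peak within 1 kb of the 5′ end in replicate 1, or 3.51% (95% Wilson interval 0.968 to 11.9), against 3.87% of all protein-coding genes. In replicate 2 there were 3 of 57, or 5.26% (1.81 to 14.4), against 4.16%. Against IgG there was 1 of 57, or 1.75% (0.310 to 9.29), against 4.52%. A peak in both replicates was found at 1 of 57 members, or 1.75%, against 1.04% of all protein-coding genes. The intervals of the members thus included the background in each list. The mean over the 2 replicates was 2.50 ± 0.707 members (SD, n = 2).

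By cluster, gamma had 2 of 21 promoters with a peak in each replicate (9.52%, 2.65 to 28.9), and these 2 were not the same pair. Beta had 0 of 22 in replicate 1 (3 counts would be 13.6%) and 1 of 22 in replicate 2. Alpha had 0 of 14 in both (3 counts would be 21.4%), and its 1 promoter with a peak appeared in the IgG-called list. In all, 5 of 57 members had a peak within 1 kb in at least 1 list, and 52 had one in none.

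Pcdhga11, a gamma gene of the A type, was the member with a peak near its 5′ end in both replicates. Replicate 1 had a peak of 144 bp at chr18:37756072-37756215, which begins 341 bp downstream of the 5′ end and lies in the variable exon, with a fold enrichment of 2.53 and a −log10 p-value of 2.41. Replicate 2 had a peak of 363 bp at chr18:37754793-37755155, which ends 576 bp upstream of the 5′ end and lies in the intron that follows the Pcdhgb7 variable exon, with a fold enrichment of 2.62 and a −log10 p-value of 2.85. The peaks were 917 bp apart and did not overlap. The IgG-called list of replicate 1 had no peak within 59.3 kb of the 5′ end. Both peaks also touch annotated exons of Gm26672, a non-coding transcript on the opposite strand, and ChIP-seq cannot tell the strands apart.

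The other promoters were marked in 1 list each. At Pcdhga10, replicate 1 had a peak of 46 bp beginning 970 bp downstream of the 5′ end (chr18:37747963-37748008), inside the variable exon, at the edge of the 1 kb window and over an exon of Gm26672 as well. Replicate 2 had none nearer than 5.17 kb and the IgG-called list none nearer than 50.5 kb. At Pcdhgb6, a B-type gamma gene, replicate 2 had a peak of 151 bp ending 267 bp upstream (chr18:37741677-37741827), where the nearest peak of replicate 1 was 5.87 kb away. Pcdhb19 had a peak of 126 bp in replicate 2 that began 231 bp downstream (chr18:37497222-37497347), while replicate 1 had none nearer than 15.7 kb. At Pcdhac2, a C-type alpha gene, the IgG-called list had a peak of 46 bp beginning 273 bp downstream (chr18:37143776-37143821), with a fold enrichment of 2.79 and a −log10 p-value of 2.84. The same H3K27me3 library called against input had none within 72.8 kb of that 5′ end.

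**Figure D3:**
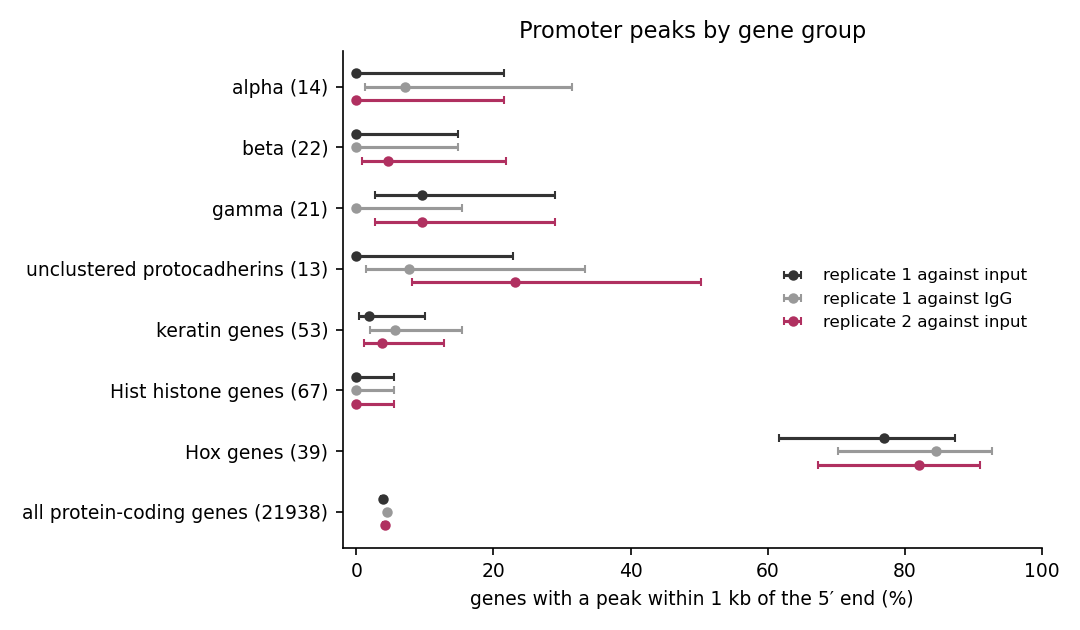
Share of genes with a peak within 1 kb of the 5′ end, in percent, by gene group (number of genes in brackets) and list. Points are shares and bars 95% Wilson intervals. The wide interval of each cluster includes the share of all protein-coding genes in the same list, while 76.9% to 84.6% of the Hox genes had a peak.

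Further inside the genes, the alpha peaks of replicate 2 lay in the variable exons of Pcdha3, 1965 bp from the 5′ end (chr18:36948070-36948390), and Pcdha12, 2257 bp from it (chr18:37022406-37022551). Another was intronic, 2770 bp upstream of Pcdha2 (chr18:36936260-36936435). The remaining 3 followed the Pcdhac2 variable exon. Of these, the peaks 4.95 kb and 10.3 kb from the Pcdhac2 5′ end lay in the intron before the constant exons, and the one 18.3 kb from it lay in an intron among them. In alpha, replicate 1 against input had no peak nearer than 72.8 kb to any 5′ end, and the median distance from a 5′ end to the nearest peak was 233 kb, against 11.9 kb in replicate 2. The median over all protein-coding genes was 55.4 kb in replicate 1 and 31.4 kb in replicate 2.

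In beta, replicate 2 had peaks in the large exons of Pcdhb1 (2023 bp from the 5′ end, chr18:37266961-37267139), Pcdhb6 (1587 bp, chr18:37335508-37335578) and Pcdhb20 (2203 bp, chr18:37506467-37506537), beside that of Pcdhb19. The remaining beta peak of that list was 11.0 kb from the nearest 5′ end. Replicate 1 had its 1 beta peak in the Pcdhb16 exon, 3300 bp from the 5′ end (chr18:37481114-37481313, 200 bp). The same interval was called against IgG from the same library, and replicate 2 had no peak nearer than 15.9 kb to it. The IgG-called list had further beta peaks 4609 bp downstream of the Pcdhb8 5′ end and 2801 bp upstream of Pcdhb11. In gamma it had its 1 peak in the variable exon of Pcdhga5, 1978 bp from the 5′ end (chr18:37696358-37696458).

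With windows of 5 kb, members overlap one another and a single peak can count for several of them. Here 5 of 57 members had a peak in replicate 1 (8.77%, against 11.7% of all protein-coding genes), 13 in replicate 2 (22.8%, 13.8 to 35.2, against 13.2%) and 6 against IgG (10.5%, against 12.5%). Only Pcdhgb7 and Pcdhga11 had one in both replicates, or 3.51% against 4.31%. Pcdhgb7 owed this to the peaks already described at Pcdhga10 and Pcdhga11, of which the nearest to its 5′ end was 3.59 kb away in replicate 1 and 3.19 kb away in replicate 2. Replicate 2 was the list in which the share of members stood above the background, and the 13 members drew on 10 peaks that lie within 5 kb of a member.

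Along the 5′ ends, peaks of replicate 2 were most frequent in the step from 2000 to 2499 bp downstream, where 4 of 57 members (7.02%) had a peak base, against 1.29% of all protein-coding genes. This step had the highest count of all steps and lists and was picked after the values were seen, so its share overstates any preference for that distance. Replicate 1 had 0 of 57 in that step against input and 1 of 57 against IgG. No 500-bp step had more than 2 members in replicate 1.

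Peaks covered 0.212% of the bases of the variable exons in replicate 1 and 0.498% in replicate 2, beside 0.124% and 0.265% of the sequenced autosomes. With 1 kb added on each side, coverage of a single exon reached at most 7.90% in a replicate. In alpha the highest means over the replicates were those of Pcdha3, with 0% in replicate 1 and 7.18% in replicate 2, and Pcdha12, with 0% and 3.26%, and all others in alpha were at 0% in both. In beta they were Pcdhb1 (0% and 3.90%), Pcdhb16 (2.77% and 0%) and Pcdhb19 (0% and 1.38%). In gamma they were Pcdhga11 (3.11% and 7.83%), Pcdhgb7 (0% and 7.90%) and Pcdhgb6 (0% and 3.31%). The replicate 2 values of Pcdhga11 and Pcdhgb7 come from the same peak of 363 bp, which lies between their exons in the added 1 kb of both. Pcdhga11 was the only member covered in both replicates, and in the others one replicate was at 0%. Counting the exons themselves, 3 of 57 variable exons held a peak in replicate 1 and 6 in replicate 2, with 0 in common. At the autosomal density of each list, 1.73 and 2.50 peaks would fall in these exons. With so few exons, the 0 in common cannot show whether the replicates differ there.

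No peak of replicate 1 in the clusters overlapped a peak of replicate 2 (0 of 3, and 0 of 13 read the other way, where 3 counts would be 23.1%). Over all nuclear chromosomes 2.85% of the peaks of replicate 1 and 1.90% of those of replicate 2 were shared. In the Hox clusters 17.6% of the peaks of replicate 1 and 32.3% of those of replicate 2 were shared. Within 1 kb, 1 of 3 cluster peaks of replicate 1 had a neighbour in replicate 2, that of Pcdhga11, and 12.7% of its whole list did.

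The 5′ ends of the clusters differed in CpG content. The ratio of observed to expected CpG within 1 kb on each side had a median of 0.641 in alpha (range 0.520 to 0.702), 0.334 in beta (0.138 to 0.475) and 0.513 in gamma (0.251 to 0.820), beside 0.474 over all protein-coding genes. All 14 alpha genes lay above that median, against 15 of 21 gamma genes and 1 of 22 beta genes, Pcdhb1. The alpha and beta ranges did not overlap. G and C content was lower than that of all genes (median 51.2%) in each cluster, with 41.9%, 42.1% and 45.5%. The 5 members with a promoter peak had ratios from 0.327 at Pcdhb19 to 0.767 at Pcdhga11, which is the second highest of all members after Pcdhgc3 (0.820), and the 52 without one ranged from 0.138 to 0.820. The Hox genes had a median of 0.591, within the alpha range. Among the protein-coding genes whose ratio lay between 0.351 and 0.606, the quartiles of the members, 5.94% had a promoter peak in replicate 1, 5.07% in replicate 2 and 1.36% in both.

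**Figure D4:**
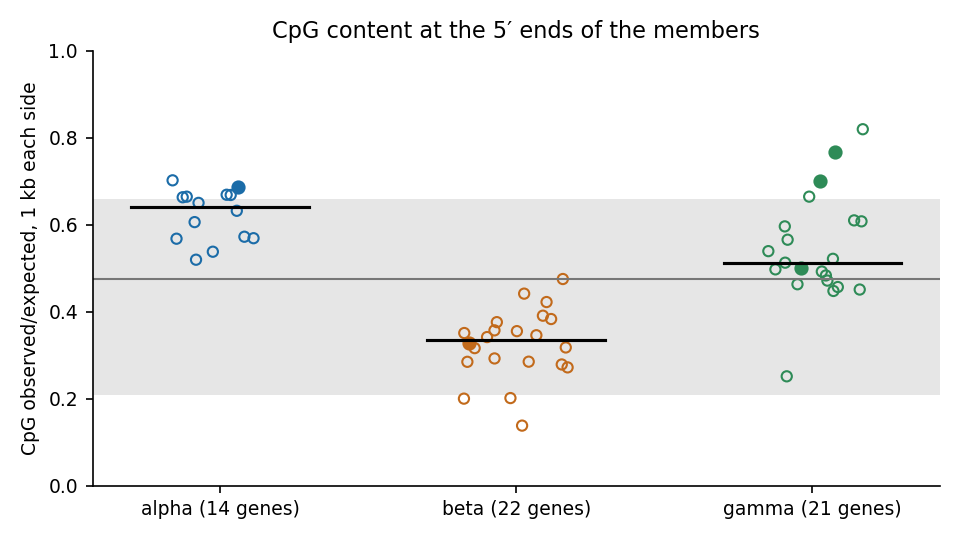
CpG observed/expected ratio within 1 kb on each side of the 5′ end, by cluster. Each circle is a member (filled where a list had a peak within 1 kb), black bars are cluster medians, and the grey line and band give the median and quartiles of all protein-coding genes, with all alpha genes above that median and 21 of 22 beta genes below it.

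The members are paralogs, and the study used uniquely mapped reads. Tags that start where the sequence recurs elsewhere in the genome would thus be lost, which can lower the signal around such positions. At the 49-base tags of replicate 1, 86.4% of the positions in alpha variable exons started a sequence found once in the genome, against 95.4% in beta and 96.2% in gamma. At the 74-base tags of replicate 2 the shares were 91.5%, 98.7% and 97.7%. Over the whole spans, in which the peaks were counted, they were 82.9% in alpha, 87.3% in beta and 96.3% in gamma at 49 bases. At 74 bases the spans had 87.2%, 92.0% and 98.0%, so beta was nearer to alpha over the spans than in the exons. Under 90% at 49 bases were 12 of 14 alpha exons, down to 73.6% in Pcdha6, whereas Pcdhac1 and Pcdhac2 were at 100%. In gamma, 5 of 21 were under 90%, all of the B type, with the lowest at 82.2% in Pcdhgb2, and in beta 1 of 22, Pcdhb12 at 87.8%. The cluster with the lowest share of unique positions was also the one without a peak in replicate 1 against input, and the part of uniqueness in that count was not tested. Of the 13 cluster peaks of replicate 2, 11 stood on sequence that was unique throughout.

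**Figure D5:**
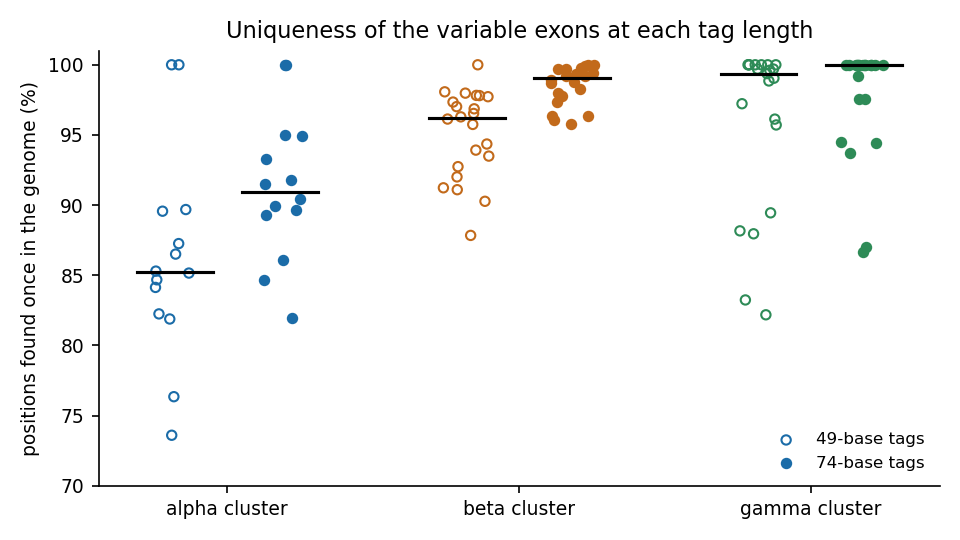
Share of positions in each variable exon, in percent, at which a sequence of the tag length occurs once in the genome, for tags of 49 bases (replicate 1, open circles) and 74 bases (replicate 2, filled circles). Each circle is a member and black bars are medians, and the vertical axis starts at 70%, with the alpha members reaching down to 73.6%.

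Protocadherins outside the clusters, which are single genes with their own promoters, were compared by the same measures. Of 13 genes (Cdhr1 among them), 0 had a peak within 1 kb in replicate 1 (3 counts would be 23.1%) and 3 had one in replicate 2, namely Pcdh10 (551 bp away), Pcdh11x (612 bp) and Pcdh15 (752 bp). Against IgG there was 1, Cdhr1 (225 bp). These are 0%, 23.1% and 7.69% of the list in replicate 1, replicate 2 and against IgG, beside 3.87%, 4.16% and 4.52% of all protein-coding genes. No gene of this list had a peak within 1 kb in both replicates. Within 5 kb there were 4 of 13 in replicate 1 (30.8%, Wilson interval 12.7 to 57.6, against 11.7% of all protein-coding genes), 5 in replicate 2 (38.5%, 17.7 to 64.5, against 13.2%) and 5 against IgG (38.5%, against 12.5%). Pcdh1 and Pcdh15 had one in both replicates, or 15.4% (4.33 to 42.2) against 4.31%. The shares of the clustered members within 5 kb, 8.77% and 22.8% in the replicates, were lower, and the Wilson intervals of both groups overlapped. Pcdh1, which lies on the same chromosome beyond the gamma cluster, had 4 peaks in replicate 1 and 1 in replicate 2 over its length with 5 kb on each side. Pcdh8 had 0 in replicate 1, 2 against IgG and 3 in replicate 2, which covered 5.70% of that stretch.

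Among other tandem gene families, promoter peaks in both replicates were found at 24 of 39 Hox genes (61.5%), 0 of 53 keratin genes (3 counts would be 5.66%) and 0 of 67 histone genes of the Hist clusters (3 counts would be 4.48%). The clustered protocadherins had 1 of 57 (1.75%), beside 1.04% of all protein-coding genes, and their Wilson interval of 0.310% to 9.29% did not reach that of the Hox genes (45.9% to 75.1%). At this background, the counts of the members, the keratin genes and the histone genes cannot be told apart from that of protein-coding genes at large.

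For genes known to act on the clusters, and for their neighbours, the counts of promoter peaks are to be read beside the 3.87% to 4.52% of all protein-coding genes that had one in a list, which in lists this short is less than 1 gene. Of 16 regulators of promoter choice or silencing, among them Ctcf and the cohesin subunit genes, Smchd1, the DNA methyltransferase genes Dnmt3a and Dnmt3b, and Ezh2 itself, 0 had a promoter peak in any of the 3 lists (3 counts would be 18.8%). Of 8 genes for cytoplasmic or membrane partners, 1 had one in replicate 1, Ptk2b, a kinase related to focal adhesion kinase, which also had one against IgG, and 0 had one in replicate 2 (3 counts would be 37.5%). Of the 5 genes beside or between the clusters (Zmat2, Slc25a2, Taf7, Diaph1 and Hdac3), 0 had a promoter peak (3 counts would be 60.0%). Slc25a2 and Taf7 lie in the 137 kb between beta and gamma, where all 3 lists had 0 peaks. The Poisson interval of that count reaches 26.9 peaks per Mb, above the autosomal 9.40 to 13.6 of the lists. In the 77.3 kb between alpha and beta each list had 1 peak, at chr18:37216299-37216412 in replicate 1 with either control and at chr18:37242934-37243139 in replicate 2.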

How the data were processed

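Reads were mapped by the authors to GRCm38 (mm10) with BWA, and from the uniquely mapped reads broad peaks were called with MACS2 (2.1.1.20160309 per the file headers) at p = 0.005, 1 tag per position being kept and the larger library scaled to the smaller. MACS modelled fragments of 46 bp for replicate 1 and of 71 bp for replicate 2. Each is shorter than the tags themselves, of 49 and 74 bases, so they cannot be the lengths of the sequenced fragments. The shortest peaks of the lists had these same lengths, 46 and 71 bp, and pileup and coverage depend on this setting. The deposited peak lists give the mean pileup (signal) of each peak, its fold enrichment (a ratio to the local control) and its −log10 p-value. q-values were not computed by the authors. The other 2 formats of each list held the same intervals and were not used, and mitochondrial peaks were left out.

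Coordinates were compared with GRCm38.p6 and GENCODE M21 in Python 3.11.15 (pandas 2.3.3, scipy 1.17.1, statsmodels 0.14.6). An overlap was at least 1 base. A peak belonged to a cluster if it touched the span of its members, and to a promoter if it lay within 1 kb of the 5′ end of the gene as annotated. Overlap counts and the counting of unique sequences (49 and 74 bases, both strands, chromosomes 1 to 19, X and Y) were checked on simulated data. Windows along the autosomes were at least 50% sequenced. Regions and genes are not replicates, so no test was made; means and SDs are over the 2 replicates, and 95% intervals (exact Poisson, Wilson) and the limits from 3 counts cover counting error only.

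Named were all members with a peak within 1 kb in any list, all cluster peaks within 5 kb of a member, the 3 members of each cluster with the highest coverage of the variable exon with 1 kb on each side, and any gene with a promoter peak in both replicates from the lists of unclustered protocadherins, regulators, partners and neighbours, which held none. Other genes of these lists were named after their values were seen. Hox, keratin and histone genes, taken by symbol, were counted as groups. The members and lists were chosen with earlier results of these data known.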

Additional observations from a re-analysis of the deposited data

How the results depend on the processing

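Of 50 combinations of a result and another setting, 16 moved by more than the spread between replicates, or over 1.5 times for a count. The other 34 say little on stability, since the replicates' SD in alpha, in beta and in the coverage was about as large as the mean, and leaving out 1 of 2 replicates cannot move a mean by more than that SD. Restricting the lists to a fold enrichment of 3 or to a −log10 p-value of 3 left 0 peaks per Mb in alpha, beta and gamma, 0% coverage, 0 promoters and 0 promoters in both replicates, since no cluster peak reached either limit. With IgG in place of input for replicate 1, gamma had 8.33 peaks per Mb and 0 promoters had a peak in both replicates. Extending the clusters by 20 kb gave 11.4 peaks per Mb in gamma, where the replicates' SD was 0. With 5 kb in place of 1 kb, the mean number of promoters was 9 and the number in both replicates 2. Allowing 5 kb between peaks, 1 peak of replicate 1 had a partner in replicate 2. With 1 replicate left out, the peak at a promoter was asked of the other alone, and the counts were 2 to 3. Leaving out replicate 1 or 2 put alpha at 23.3 or 0 peaks per Mb and beta at 19.3 or 3.85, so the alpha mean rests on replicate 2 alone. No paired analysis was possible because no result comes from a test. At this depth the lowest peaks are 4 tags high in replicate 1 and 6 in replicate 2, so enrichment below that height could not be called.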
